A study of Homo sapiens with 11 samples.

Results

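The miR-342 hairpin, MIR342, lies in an intron of EVL and gives rise to 2 mature microRNAs, hsa-miR-342-3p and hsa-miR-342-5p, which were followed through 11 small RNA libraries of SH-SY5Y cells exposed to H2O2. They are 2 of the 2576 mature miRNAs counted, and they were selected on measured values, namely a high level and a wide gap between the control libraries of the pre-treatment experiment, a gap that hsa-miR-342-3p showed and hsa-miR-342-5p did not. SH-SY5Y is a human neuroblastoma line, a clonal subline of SK-N-SH, which was taken from bone marrow, and it becomes neuron-like when cultured with all-trans retinoic acid (ATRA). Every culture received 10 µM ATRA for 7 days, controls included. In the co-treatment experiment, 3 H2O2 libraries came from cells that had 10 µM H2O2 during those 7 days, and 3 control libraries from cells without it. In the pre-treatment experiment, 3 H2O2 libraries came from cells that had 10 µM H2O2 for 72 h before ATRA, after which it was removed, and 2 control libraries came from cells differentiated without H2O2. The design was one of triplicates from which the submitters removed 1 outlying sample.

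A miRNA hairpin is cut to a short duplex, and either strand, the 5p or the 3p arm, can be loaded into an Argonaute protein, where bases 2 to 8 (the seed) pair with target mRNAs. The strand that is not loaded is degraded, so the arms of one hairpin usually accumulate to very different levels. EVL, the host gene, codes for an Ena/VASP-like regulator of actin filaments, and miR-342 is best known from leukocytes and from acute promyelocytic leukaemia cells, in which retinoic acid raises it. H2O2 serves as a source of oxidative stress, and the question of each experiment was how miRNA levels differed between exposed and unexposed differentiating cells.

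The sequences are shown because each arm can be read only against the other in the same hairpin. In the GRCh37 (hg19) genome, the build the reads were aligned to, the hairpin lies on the plus strand at chr14:100575992-100576090, in intron 3 of the 14-exon transcript EVL-201 (intron chr14:100563996-100589875, 25880 nt). EVL spans chr14:100437786-100610573 on the same strand, 8 of its transcripts run across the hairpin, and the hairpin overlaps an exon in 0 of them. The hairpin sequence, from RefSeq and identical to GRCh37, has both arms in capitals, 5p first. In the arms, also from RefSeq, capitals mark the seed.
MIR342 hairpin: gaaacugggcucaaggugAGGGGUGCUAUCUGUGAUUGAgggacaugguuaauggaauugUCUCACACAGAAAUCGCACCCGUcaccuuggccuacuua
hsa-miR-342-5p: aGGGGUGCuaucugugauuga
hsa-miR-342-3p: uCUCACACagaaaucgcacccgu

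hsa-miR-342-5p has 21 bases (positions 19 to 39 of the 99-nt hairpin, chr14:100576010-100576030), and hsa-miR-342-3p has 23 (positions 61 to 83, chr14:100576052-100576074). Their GC contents are close, at 47.6% and 52.2%. The 5p seed GGGGUGC and the 3p seed CUCACAC differ, and 0 of the other mature human miRNAs in a table of 2370 carry either of them. Each arm matches 1 hairpin in that table, so no second hairpin there holds the same mature sequence.

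Libraries held 5343953 to 8927582 counts (median 7425640), so that 3 counts, taken as the detection limit, equal 0.336 to 0.561 CPM. CPM here is the usual count scaled to a common library size, with TMM factors over all 11 libraries. Whether the kit's molecular identifiers were used in counting is not given in the sources used here, so counts are taken as reads, and intervals cover counting error only. The pre-treatment controls resembled each other less than any other pair of one group, with a Pearson correlation of 0.920 over 402 miRNAs against 0.976 to 0.997 in the other pairs. Among neuronal miRNAs, miR-137 was abundant (77318 to 247992 counts), while miR-124-3p (0 to 7 counts) and miR-9-5p (14 to 46) were scarce in all 11 libraries.

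hsa-miR-342-3p was among the abundant miRNAs of these cells and hsa-miR-342-5p was a minor product of the same hairpin. The 3p arm took 0.555% to 2.34% of all counts and ranked between 10 and 31 by count within a library. The 5p arm ranked between 147 and 231. Both arms were read in every library, with 40463 to 162101 counts for 3p and 475 to 1613 for 5p, far above the detection limit.

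In the co-treatment controls, hsa-miR-342-3p stood at 8143, 10835 and 9298 CPM (9425 ± 1350, SD, n = 3). With H2O2 during differentiation it stood at 15129, 11340 and 13586 CPM (13352 ± 1905, n = 3). Every H2O2 library was above every control, although the lowest H2O2 library, replicate 2, was only slightly above the highest control. In pre-treatment, the H2O2 libraries were close together at 8521, 8352 and 9019 CPM (8631 ± 347, n = 3). The pre-treatment controls stood at 22908 and 5993 CPM, so that the H2O2 libraries lay between them. These 2 control libraries hold the highest and the lowest hsa-miR-342-3p level of the whole series.

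hsa-miR-342-5p was at 93.1, 88.4 and 80.6 CPM in the co-treatment controls (87.4 ± 6.30, SD, n = 3). The co-treatment H2O2 libraries were at 109, 84.1 and 109 CPM (101 ± 14.3, n = 3), overlapping the controls. The pre-treatment controls were at 218 and 239 CPM. The pre-treatment H2O2 libraries were at 58.3, 68.2 and 66.8 CPM (64.4 ± 5.37, n = 3). The 5p order over the groups therefore ran from pre-treatment H2O2, the lowest, through both co-treatment groups, whose ranges overlapped, to the pre-treatment controls, the highest. The 3p order differed, since the pre-treatment controls fell at both ends of it and the range of the pre-treatment H2O2 group lay inside that of the co-treatment controls.

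**Figure D1:**
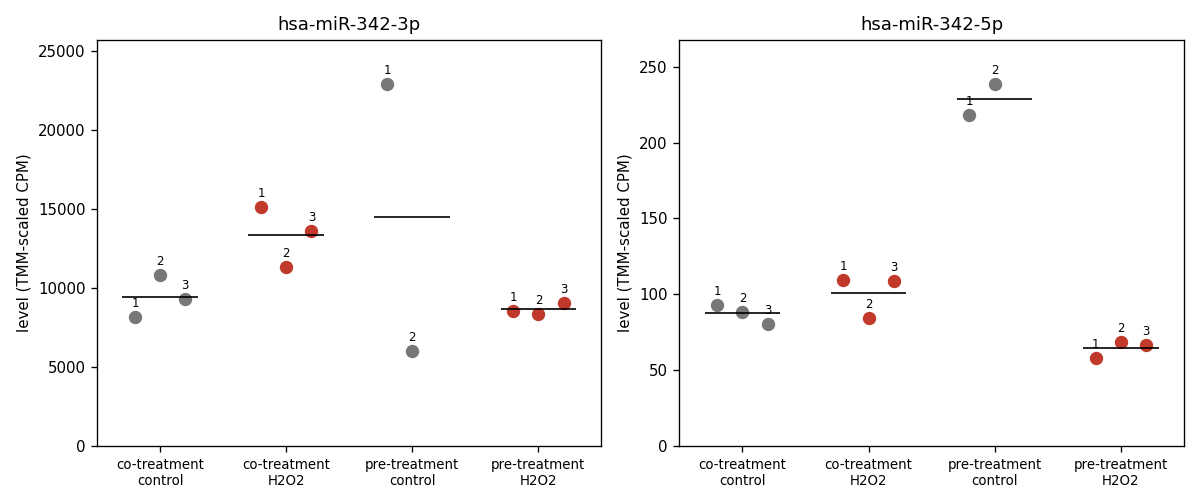
Levels of hsa-miR-342-3p (left) and hsa-miR-342-5p (right) in TMM-scaled CPM on linear axes that start at 0, one point per library with its replicate number, grey for control, red for H2O2, and a line at each group mean. The pre-treatment controls are far apart for 3p (22908 and 5993 CPM) and close together for 5p (218 and 239 CPM).

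The gap between the pre-treatment controls is what the hairpin was chosen for, and it is given as a description. On the log2 CPM scale control 1 exceeded control 2 by 1.93 for hsa-miR-342-3p, a 3.82-fold gap, while hsa-miR-342-5p differed by -0.13, or 1.09-fold. The wide gap was therefore a property of the 3p arm alone. Within the other 3 groups, pairs of libraries differed at most 1.33-fold for 3p and 1.30-fold for 5p. The 3p gap was the 48th largest of 404 miRNAs with a mean of at least 10 CPM, and the 4th largest of the 50 most abundant. Such gaps were common between these controls, since 158 of the 404 miRNAs (39.1%) differed by at least 1 on the log2 scale.

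**Figure D2:**
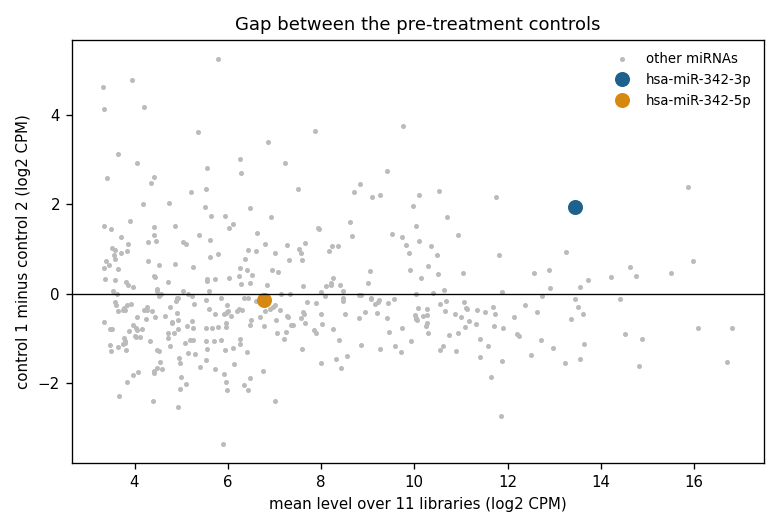
Difference between the pre-treatment controls (control 1 minus control 2, log2 CPM) against the mean level over 11 libraries (log2 CPM) for 404 miRNAs, grey points, with hsa-miR-342-3p in blue and hsa-miR-342-5p in orange. The 3p arm lies at 1.93 among the abundant miRNAs and the 5p arm at -0.13.

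Markers of other cell types also differed between these controls, in both directions. The 7 leukocyte miRNAs examined summed to 127 CPM in control 1 and 32.4 CPM in control 2, against 20.9 to 41.8 CPM in the other 9 libraries. Of the 127 CPM, miR-223-3p held 76.3, and without it the sums were 50.6 and 31.8 CPM. miR-223-3p, the defining myeloid miRNA, had 540 counts in control 1, 4 in control 2 and 3 to 35 elsewhere, and miR-142-3p had 182, 62 and 24 to 100. miR-223-5p and miR-155-5p were at 0 counts in control 2, and at 2 and 3 counts in control 1. miR-146a-5p ran the other way, at 7.49 CPM in control 1 and 18.5 CPM in control 2. The 7 epithelial miRNAs summed to 211 CPM in control 1, of which miR-205-5p held 142, and to 70.8 CPM in control 2, against 76.4 to 107 CPM elsewhere. Without miR-205-5p the epithelial sums were close, at 69.1 and 66.1 CPM. The other lists summed lower in control 1 than in control 2. The sums were 15761 and 28474 CPM for neuronal and 97.4 and 254 CPM for liver miRNAs. They were 1.55 and 4.15 CPM for muscle and 2.12 and 3.70 CPM for red blood cell miRNAs. Few members carried these sums. Most of the neuronal sum was miR-137 (10926 and 20462 CPM), while miR-125b-5p was higher in control 1 (263 and 155 CPM), as was miR-124-3p (2 and 0 counts). The liver sum was miR-122-5p alone. In muscle, miR-206 had 4 and 22 counts and miR-1 had 7 and 6. Among red blood cell miRNAs, miR-144-5p had 1 and 10 counts, while miR-451a had 6 and 6 and miR-486-5p 8 and 8. The part of these markers in the hsa-miR-342-3p gap was not tested. In bulk libraries fewer cells of a type and less RNA per cell cannot be told apart.

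The response to H2O2 was tested with edgeR's exact test within each experiment, and a miRNA was called changed at FDR under 0.05 with an absolute log2FC above 0.6. Its p-values set a difference against the spread between libraries within both groups, estimated with information shared across miRNAs. All libraries came from the same cell line. In co-treatment, neither arm passed. hsa-miR-342-3p had a log2FC of 0.47 (SE 0.22, 1.39-fold, edgeR exact test FDR 0.180), against a background of 26.2% of 790 miRNAs called. Its groups did not overlap, as was the case for 41.4% of the 790. The exact permutation test gave p = 0.1, the smallest that 3 against 3 libraries allow. The call moved with H2O2 replicate 2, the lowest of its group, and with the filter. Without that replicate the log2FC was 0.66 with an edgeR FDR of 0.0473, and the 3p arm was then called raised. A filter that required the CPM minimum in all 6 libraries gave 0.66 with an edgeR FDR of 0.0460, also a call. For hsa-miR-342-5p the log2FC was 0.17 (SE 0.26, edgeR FDR 0.677; exact permutation p = 0.3).

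In pre-treatment, hsa-miR-342-5p was down-regulated, with a log2FC of -1.87 (SE 0.27, 3.66-fold lower, edgeR exact test FDR 5.94e-05, lower in 3 of 3 H2O2 libraries). It was the 63rd most lowered of 868 miRNAs tested, of which 15.3% were called in either direction and 9.91% were called lowered. The edgeR quasi-likelihood test also called it (FDR 0.0310), as it did only 1.96% of the 868. The groups did not overlap, which held for 47.6% of the 868, and the exact permutation p was 0.1, again the smallest the design allows. The call was lost without H2O2 replicate 1 (log2FC -1.76, edgeR FDR 0.0593) and without H2O2 replicate 2 (-1.86, edgeR FDR 0.0551). It was kept without H2O2 replicate 3 (-1.87, edgeR FDR 0.0255). With the replicate number as a block, the quasi-likelihood test gave no call (log2FC -1.88, FDR 0.117). The size rests on controls at 218 and 239 CPM. The co-treatment controls, also without H2O2, stood at 80.6 to 93.1 CPM, and the source of that difference was not tested. With 1 control left out the log2FC was -1.94 or -1.77, given as effect sizes only. hsa-miR-342-3p did not pass, with a log2FC of -0.75 (SE 0.48, edgeR FDR 0.336, exact permutation p = 0.7). The gap between the 2 controls, for which the hairpin was chosen, widens this SE and makes the groups overlap. These tests therefore cannot decide whether 3p responded.

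Each control alone gave the same fall of hsa-miR-342-5p and opposite signs for hsa-miR-342-3p. In these fits the lone control is assumed to vary like the H2O2 libraries, and the split of the 3p values follows from the gap that the hairpin was chosen for, so those values are given without a test. Against control 1, hsa-miR-342-3p had a log2FC of -1.42 (SE 0.14, 2.67-fold lower) and hsa-miR-342-5p of -1.77 (SE 0.19). Against control 2, hsa-miR-342-3p had a log2FC of 0.47 (SE 0.14) and hsa-miR-342-5p of -1.94 (SE 0.18). Beside control 1 both arms were lower in all 3 H2O2 libraries, and beside control 2 the 5p arm was lower and the 3p arm higher in all 3.

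**Figure D3:**
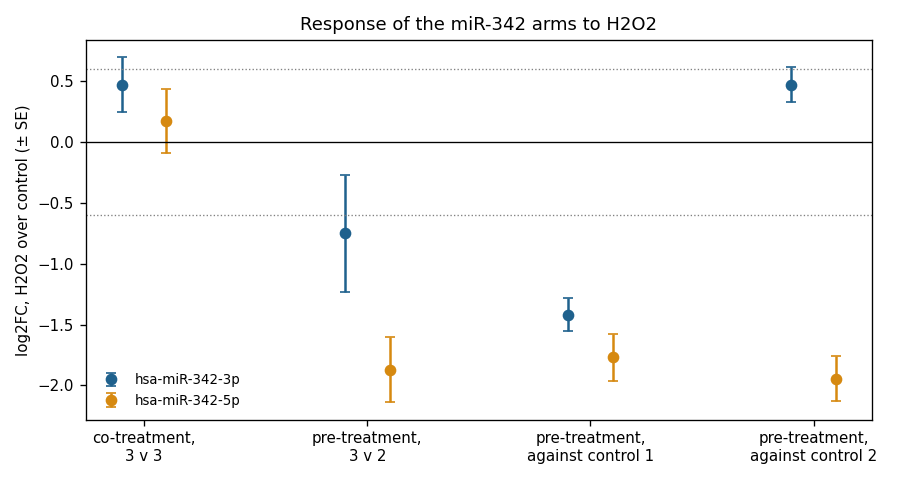
log2FC of H2O2 over control with its SE for hsa-miR-342-3p (blue) and hsa-miR-342-5p (orange) in co-treatment, in pre-treatment and in pre-treatment against each control alone, with dotted lines at the 0.6 threshold in both directions. The 5p arm lies between -1.94 and -1.77 in all 3 pre-treatment fits, and the 3p arm runs from -1.42 against control 1 to 0.47 against control 2.

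Whether the arms responded differently in the experiments was asked with an interaction term in a quasi-likelihood fit to the 11 libraries, where experiment and batch cannot be told apart. The hsa-miR-342-5p log2FC was lower in pre-treatment than in co-treatment, with a pre-treatment minus co-treatment difference of -2.03 (SE 0.37, edgeR FDR 0.00221) that was called, as were 27.3% of 945 miRNAs. Leaving out any 1 of the 11 libraries gave values from -2.30 to -1.95. For hsa-miR-342-3p the difference was -1.25 (SE 0.51, edgeR FDR 0.0843) and was not called, but the gap between the pre-treatment controls widens this SE too. The size of the difference depended on the control, at -0.18 without control 1 and -1.90 without control 2. That split again follows from the gap that the hairpin was chosen for and is given without a test.

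The ratio of the arms within a library needs no scaling between libraries. Both arms are short and of nearly the same length, but how efficiently each was ligated and amplified was not measured, so a ratio is compared between libraries rather than read as a molar ratio. The co-treatment controls had 87.5, 123 and 115 counts of 3p per count of 5p (108 ± 18.5, SD, n = 3), and the co-treatment H2O2 libraries 139, 135 and 125 (133 ± 7.00, n = 3). The pre-treatment H2O2 libraries had 146, 122 and 135 (135 ± 11.9, n = 3). Of the pre-treatment controls, control 1 had 105, inside the range of the co-treatment controls, and control 2 had 25.1, the lowest of the series. As a share of the hairpin's counts, 5p made up 0.944% in control 1 (95% Wilson interval 0.898 to 0.992%) and 3.83% in control 2 (3.65 to 4.02%), against 0.679% to 1.13% in the other 9 libraries. The values of control 2 restate the 3p gap that the hairpin was chosen for.

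**Figure D4:**
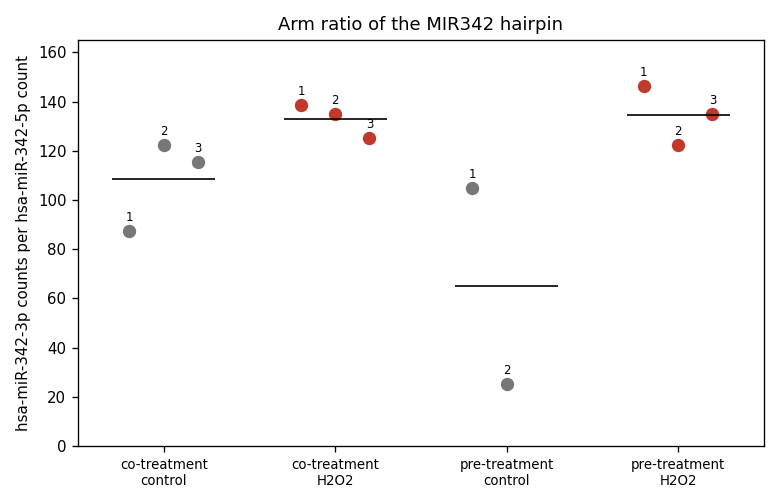
Counts of hsa-miR-342-3p per count of hsa-miR-342-5p in each library on a linear axis from 0, one point per library with its replicate number, grey for control and red for H2O2, and a line at each group mean. Pre-treatment control 2 lies at 25.1 and the other 10 libraries between 87.5 and 146.

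In counts, the arms were more unequal than in most of the hairpins compared, which is no measure of molar preference. Among 148 hairpins with both arms at a mean of at least 20 counts, miR-342 was the 28th most unequal, with a median of 122-fold more 3p against a median imbalance of 11.2-fold, and 61 of the 148 had more 3p than 5p. In pre-treatment control 2 its log2 5p/3p ratio stood 2.29 above its own median over the libraries, the 9th largest deviation of the 148 hairpins there. In the other 10 libraries it deviated by at most 0.49. The hairpin was chosen for a high level and for the 3p gap between the pre-treatment controls. Its deviation in control 2 restates that gap, and its rank by imbalance leans on that level, so both are descriptions. Pre-treatment control 2 held 14 hairpins that deviated by at least 2, against 0 to 10 in each of the others, and its median absolute deviation was 0.64 against 0.22 to 0.59.

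H2O2 was compared with control on the log2 5p/3p ratio with limma, with the same FDR and log2 thresholds. In co-treatment the difference was -0.31 (SE 0.29, limma FDR 0.485; exact permutation p = 0.1 with no overlap of the groups), where 10.7% of 150 hairpins were called and 33.3% had groups without overlap. In pre-treatment it was -1.39 (SE 0.61, limma FDR 0.199; exact permutation p = 0.1), the 30th largest of 144 hairpins, of which 13.9% were called. The pre-treatment groups did not overlap, as was the case for 48.6% of the 144. The size depended on the control, at -0.35 (SE 0.18) against control 1 and -2.42 (SE 0.18, 5.35-fold) against control 2. This split restates the 3p gap that the hairpin was chosen for, and with a single control the spread comes from the H2O2 libraries alone, so it is a description and not a test. The arm ratio was not called in either experiment with all libraries. In pre-treatment the same gap widened its SE, so that result cannot decide whether the ratio changed.

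Other hairpins also had arms on different sides of the threshold. In co-treatment, 29 of 203 hairpins with both arms tested had both called, 34 the 5p arm only, 37 the 3p arm only and 103 neither, as for miR-342. In pre-treatment, 6 of 226 had both called, 33 the 5p arm only, as for miR-342, 24 the 3p arm only and 163 neither. The log2FC of hsa-miR-342-5p minus that of hsa-miR-342-3p was -0.30 in co-treatment, less in size than the median of 0.57 over the hairpins. In pre-treatment it was -1.12, the 79th largest of the 226, with a median of 0.76. The pre-treatment class and rank of miR-342 depend on the 3p gap between the controls that the hairpin was chosen for. They are descriptions only.

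**Figure D5:**
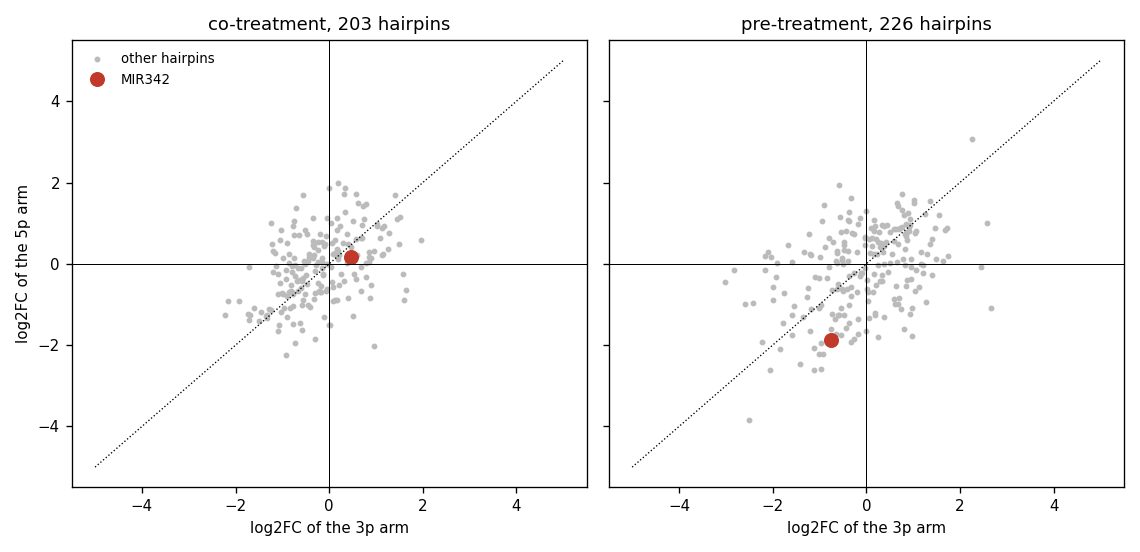
log2FC (H2O2 over control) of the 5p arm against that of the 3p arm for 203 hairpins in co-treatment (left) and 226 in pre-treatment (right), grey points, with MIR342 in red and a dotted line of equal change. MIR342 lies at 0.47 for 3p and 0.17 for 5p in co-treatment and at -0.75 and -1.87 in pre-treatment, below the line in both.

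The miRNAs whose levels ran most like each arm were not the same. Likeness was the root mean square difference of log2(CPM + 0.5), centred on each miRNA's own mean, over the 11 libraries and among 402 other miRNAs with a mean of at least 10 CPM. Nearest to hsa-miR-342-3p were miR-3605-3p (0.186), miR-3173-5p (0.225), miR-505-5p (0.234), miR-935 (0.238) and miR-92b-3p (0.260), against a median of 0.780. Like hsa-miR-342-3p, all 5 were higher in pre-treatment control 1 than in control 2, as with miR-935 at 3255 and 660 CPM. Nearest to hsa-miR-342-5p were miR-766-5p (0.220), miR-1306-3p (0.288), miR-181a-2-3p (0.295), miR-4326 (0.314) and miR-375 (0.352), against a median of 0.867. In these 5 both pre-treatment controls exceeded all 3 pre-treatment H2O2 libraries, as with miR-181a-2-3p at 4544 and 6224 CPM against 2448 to 2758 CPM. Between the arms themselves the difference was 0.683, the 140th smallest seen from 3p and the 93rd seen from 5p. The patterns shared with each arm follow from choosing these miRNAs by likeness over the same 11 libraries, and are no separate result. All of these miRNAs were read in the same libraries, so depth and composition are shared between them.

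The miRNAs examined from near MIR342, which were picked by name, were not called in any experiment in which they were tested. MIR151B lies 140 nt upstream on the opposite strand (chr14:100575756-100575851), and hsa-miR-151b had 1 to 19 counts in a library. It was not tested in co-treatment and had a log2FC of -0.61 (SE 0.87) in pre-treatment. MIR345 lies 198105 nt downstream (chr14:100774196-100774293), outside EVL. miR-345-5p had a log2FC of 0.44 (SE 0.30) in co-treatment, which became -0.086 with a correction for GC content, and 0.57 (SE 0.26) in pre-treatment. miR-345-3p had -0.10 (SE 0.33) and 0.59 (SE 0.43).

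miR-342 belongs to a set of miRNAs reported to move with retinoic acid in acute promyelocytic leukaemia cells, of which 9 others were examined here (let-7a-5p, let-7c-5p, let-7d-5p, miR-15a-5p, miR-15b-5p, miR-16-5p, miR-107, miR-181b-5p and miR-223-3p). All libraries had ATRA, so these values concern H2O2 and not ATRA. In co-treatment 1 of the 9 was called, against 26.2% of all miRNAs tested. This was miR-15a-5p, a repressor of cell cycle and BCL2 mRNAs, which fell with a log2FC of -1.19 (SE 0.24, edgeR FDR 3.30e-04), or -0.70 (edgeR FDR 0.0621, no call) with the GC correction. The median log2FC was 0.15, against -0.04 over the 790 miRNAs. In pre-treatment 2 rose and 1 fell, against 15.3% of all miRNAs called, and the median was -0.23, against -0.19 over the 868. Those that rose were miR-15a-5p at 1.05 (SE 0.25, edgeR FDR 0.0261) and miR-16-5p, its partner in one cluster, at 1.06 (SE 0.26, edgeR FDR 0.0291), and both had an FDR of 0.0590 by the edgeR quasi-likelihood test. miR-223-3p fell, with a log2FC of -4.87 (SE 1.42, edgeR FDR 0.0107), but this rested on control 1 (540 counts), and without it the log2FC was 1.04. None of the 9 was called in pre-treatment when H2O2 replicate 1, 2 or 3 was left out, where edgeR called 9 to 16 miRNAs in all, and 6 were called without control 2, where 54.8% of all miRNAs were.

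The calls in the marker lists are to be read beside the 26.2% of miRNAs called in co-treatment and the 15.3% in pre-treatment. Of the 7 leukocyte miRNAs, 5 were tested, of which miR-142-5p fell in co-treatment (log2FC -1.30, edgeR FDR 0.0145) and miR-223-3p in pre-treatment, with medians of 0.28 and -0.60. Of the 7 epithelial miRNAs, miR-205-5p alone was called, and it fell in pre-treatment (log2FC -4.54, edgeR FDR 0.00271), where control 1 held 1007 of its counts, control 2 held 32 and the H2O2 libraries 15 to 32. Of the 3 red blood cell miRNAs tested, 1 rose in co-treatment and 2 in pre-treatment, at summed levels of 2.12 to 15.0 CPM. The liver miRNA miR-122-5p rose in pre-treatment (log2FC 1.88, edgeR FDR 0.0116), and of 2 muscle miRNAs 1 rose there. Of the 9 neuronal miRNAs tested, 3 fell in co-treatment, among them miR-137 (log2FC -1.10), and in pre-treatment miR-138-5p rose (1.03) and miR-375 fell (-1.32).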

How the data were processed

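Small RNA was sequenced (QIAseq miRNA kit). According to the submitters' notes, Cutadapt 2.10 removed adapters, Bowtie2 2.4.1 aligned the reads to hg19, and htseq-count 0.7.2 gave 1 count per mature miRNA and library. The authors deposited these counts without normalization, 1 table per experiment. Their tables of fold changes, mean levels, p-values and FDR were not used, and the removed control of pre-treatment was not used here. Samples were grouped by their labels.

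Counts were analysed with edgeR 4.0.16 in R 4.3.3, with limma 3.58.1 for arm ratios (log2 of counts + 0.5). A miRNA was tested if at least 3 co-treatment libraries were above 0.936 CPM, or at least 2 pre-treatment libraries above 0.721 CPM, the value of 5 counts in the shallowest library. SE came from the quasi-likelihood fit, and p-values were adjusted by Benjamini-Hochberg over all miRNAs or hairpins tested. Alternatives included DESeq2 1.42.0, other scalings, filters and thresholds, a GC correction, a replicate block and each library left out. Scripts were tested on simulated data. Besides both arms, the text names the list members, neighbours and 5 most alike miRNAs per arm, and gives the leukocyte, epithelial, red blood cell, liver, muscle and neuronal lists. The arms and all lists were chosen with earlier results of these data known.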

Additional observations from a re-analysis of the deposited data

Results flagged for a closer look

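The response of hsa-miR-342-5p to H2O2 differed between the experiments by the test of the difference itself, which is why it is listed here. Its log2FC in pre-treatment minus that in co-treatment was -2.03 (SE 0.37, edgeR quasi-likelihood interaction FDR 0.00221), with log2FC values of -1.87 and 0.17 in the separate fits. The pre-treatment controls, at 218 and 239 CPM, were above all 9 other libraries, which ranged from 58.3 to 109 CPM. Experiment and batch cannot be told apart in these libraries.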

How the results depend on the processing

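With H2O2 replicate 2 of co-treatment left out, or the filter set to all libraries, hsa-miR-342-3p passed (log2FC 0.66 in both, edgeR FDR 0.0473 and 0.0460). Leaving out each library gave 0.40 to 0.66 for hsa-miR-342-3p and 0.14 to 0.36 for hsa-miR-342-5p in co-treatment. In pre-treatment it gave -1.42 (without control 2) to 0.47 (without control 1) for 3p. These 3p values follow from the gap that the hairpin was chosen for and are given without a test. For 5p, leaving out each library gave -1.94 to -1.76. The differences between experiments ran from -1.90 to -0.18 for 3p and from -2.30 to -1.95 for 5p. The arm ratio ran from -2.42 to -0.35 in pre-treatment and from -0.40 to -0.16 in co-treatment. Deviations from the group mean were correlated between control and H2O2 libraries of the same replicate number. The correlations were -0.25 to 0.06 in co-treatment, and 0.03 and 0.35 in pre-treatment. With so few libraries they cannot decide whether replicate numbers pair the libraries. With the replicate number as a block, hsa-miR-342-5p in pre-treatment had a log2FC of -1.88 (edgeR quasi-likelihood FDR 0.117, against 0.0310 without the block). With block and GC correction it was -1.95 (edgeR quasi-likelihood FDR 0.129). The block changed no other call of the arms or their differences. The cause of these changes was not tested.

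The 207 exact-test calls in co-treatment became 107 to 274 with a library left out, and 181 by quasi-likelihood. The fits with a block, with the GC correction or of both experiments used the quasi-likelihood test, so 181 is the count to set beside the block. They gave 111 with the block, 47 with the GC correction (153 on the same miRNAs without it) and 84 in one fit of both experiments. With block and GC correction edgeR called 0 of 700 in co-treatment (131 at an unadjusted p under 0.05). The 133 exact-test calls in pre-treatment became 61 without a filter and 17 by quasi-likelihood. By the quasi-likelihood test, 15 were called with the block and 2 with the GC correction. The same miRNAs without that correction gave 12, and this uncorrected fit was chosen after seeing the data, as was its co-treatment counterpart. With block and GC correction edgeR called 0 of 768 (105 at an unadjusted p under 0.05). By the exact test, leaving out an H2O2 library of pre-treatment gave 9 to 16. The 258 called differences became 115 with the block, and 164 to 246 with a co-treatment library or a pre-treatment H2O2 library left out. The arm ratio calls went from 16 to 10 at a minimum mean of 5 counts, 0 with the block (37 at an unadjusted limma p under 0.05) and 0 to 40 with a library left out in co-treatment, and from 20 to 0 with the block (20 at an unadjusted limma p under 0.05) and 0 to 75 in pre-treatment. miR-345-5p in co-treatment reversed to -0.086 with the GC correction and -0.11 with block and GC correction, and miR-223-3p in pre-treatment ran from -5.88 to 1.04 (without control 1) with a library left out. The control gap was 2.02 to 2.07 for 3p and -0.05 to 0.01 for 5p under other scalings chosen after seeing the data. With 2 pre-treatment controls, a permutation test cannot reach 0.05.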
